A study of Zea mays with 24 samples.

Results

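In roots of maize seedlings given a salinity solution, 86 annotated genes had opposite salt responses in the cultivars SS and ST, of 44146 features with Zm00001d identifiers and 50202 features in all. The response of a gene, L, was log2 of the mean FPKM under salinity plus 1 over the mean FPKM under water plus 1, FPKM being fragments counted on a gene model, divided by its length and by the counted reads of the library. A member had an absolute L of at least 0.8 in both cultivars with opposite signs, so the members were chosen by their measured root expression, and their root values are described without a test. Of the 86 genes, 60 were higher under salinity in SS roots and lower in ST roots (SS-up genes), and 26 were lower in SS roots and higher in ST roots (SS-down genes). The rule set 2 other identifiers aside.

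Roots meet salt first. Salt lowers the water potential around them, which makes water harder to take up, and brings in sodium and chloride, while root cells respond by changing ion transport, osmotic adjustment, cell walls and growth. When genotypes of a crop differ in these responses, a gene can be induced in one genotype and repressed in the other, a form of interaction between genotype and environment.

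The study compared young shoots and roots of the cultivars SS and ST, whose full names and relation to one another are not given in the sources used here. Plants grown under normal conditions received water or a 100 mM salinity solution at the 3-leaf stage, and RNA was sequenced as paired reads of 150 bases. The 8 groups are SS roots, ST roots, SS shoots and ST shoots, each under water and under salinity, with 3 libraries each (24 in all), and the series calls the libraries of a group biological replicates. The salt used and the time of exposure are not given in the sources used here. Each cultivar is 1 genotype, so a difference between SS and ST is a difference between these genotypes.

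Whole reads recovered from the FPKM values gave 19747198 to 28825226 counted reads per library. Replicate libraries had correlations of 0.995 to 0.998 across features on the log2(FPKM + 1) scale, and no pair agreed within counting noise. None of the 86 identifiers, and none of the 15 shoot marker genes listed, had a match in the reference table used here, so the members are given by identifier and the tissue labels were not checked against markers. In whole roots and shoots, fewer cells of a type and less RNA per cell cannot be told apart.

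Among the 60 SS-up genes, L ran from 0.81 to 1.98 in SS roots (median 1.04) and from -3.53 to -0.83 in ST roots (median -1.23). The response was larger in ST for 44 of the 60 genes and larger in SS for 16. The smaller of the 2 responses was at least 1 in size for 28 genes. The members nearest the threshold had a smaller response of 0.815 and 0.819, and the nearest genes outside it had 0.792 and 0.782.

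**Figure D1:**
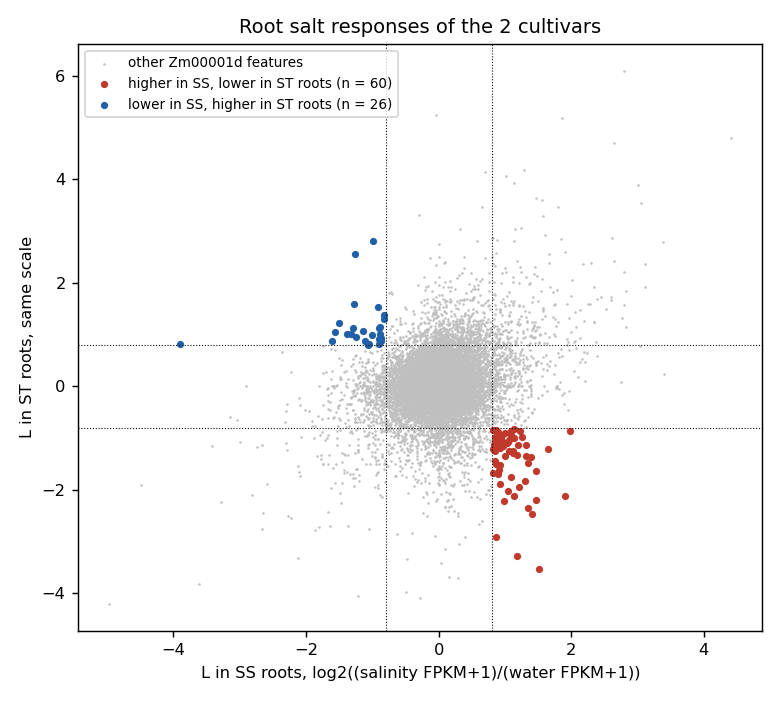
Root salt response in SS (horizontal axis) and ST (vertical axis), as L on the log2 scale, with dotted lines at sizes of 0.8. Shown are Zm00001d features with at least 1 FPKM in at least 3 root libraries, without the 2 identifiers set aside. The 60 SS-up genes (red) lie at the lower right and the 26 SS-down genes (blue) at the upper left, as the rule requires, with other features in grey.

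The 2 SS-up genes with the largest smaller response were Zm00001d012063 and Zm00001d000163. Zm00001d012063, a model of 636 bases, had 20.1, 21.9 and 16.5 FPKM in SS roots under water and 80.5, 75.7 and 71.1 FPKM under salinity. In ST roots it had 103, 107 and 95.2 FPKM under water and 24.4, 21.4 and 22.3 FPKM under salinity. Its level was thus 3.89-fold higher under salinity in SS and 4.48-fold lower in ST, and the salt-treated ST roots came to about the level of the water-treated SS roots, 22.7 ± 1.56 against 19.5 ± 2.74 FPKM (SD, n = 3).

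Zm00001d000163 had 10.6, 11.3 and 10.4 FPKM in SS roots under water and 31.8, 32.9 and 33.7 FPKM under salinity. In ST roots it had 85.6, 84.4 and 78.4 FPKM under water and 6.14, 6.34 and 6.28 FPKM under salinity. No library of one treatment overlapped the other in either cultivar, and the 13.2-fold lower level in ST belongs to the largest ST response of the set. Zm00001d041111, named for its absence from shoots after its values were seen, had 20.6 ± 0.956 and 58.6 ± 2.36 FPKM in SS roots and 49.2 ± 1.87 and 9.91 ± 0.5 FPKM in ST roots, under water and salinity in that order (SD, n = 3).

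The SS-up genes were mostly higher in ST than in SS under water and lower in ST under salinity. Under water the ST mean was above the SS mean for 54 of 60 genes. Of all Zm00001d features with at least 1 FPKM in at least 3 root libraries, 55.6% were higher in ST. Under salinity the SS mean was above the ST mean for 48 genes, while ST was above SS for 57.5% of the same features. The order of the cultivars therefore switched between treatments in 42 genes, ST stayed above in 12, and SS stayed above in 6. These orders use the root means that the rule used and are a description.

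Across the 60 genes the median of the group means was 7.26 FPKM in SS roots under water, 18.9 FPKM in SS under salinity, 27.9 FPKM in ST under water and 8.74 FPKM in ST under salinity. ST roots under water held the highest mean for 42 genes and SS roots under salinity for the other 18. The rule leaves only these groups as the possible highest ones.

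**Figure D2:**
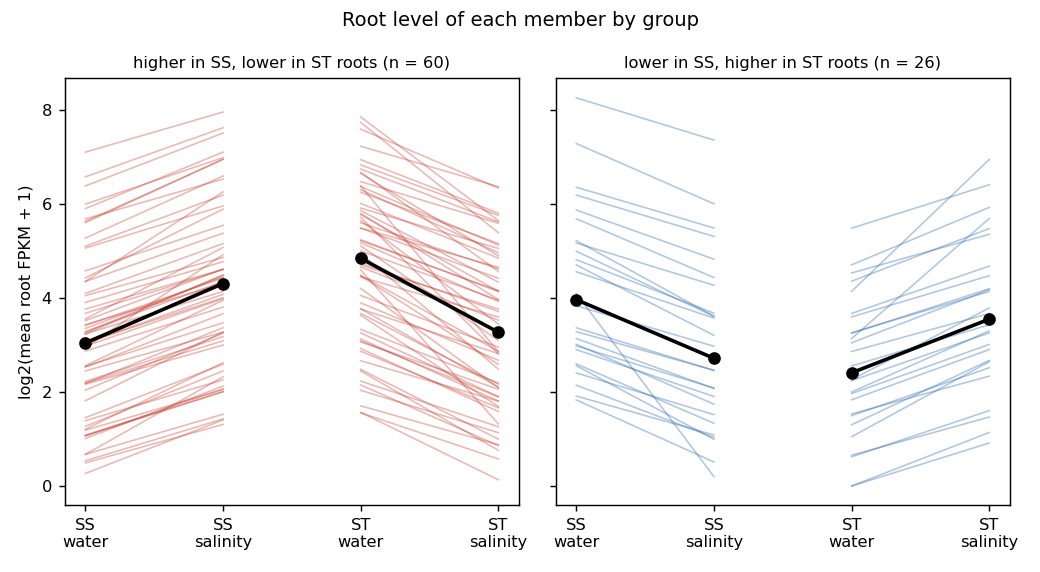
Mean root FPKM of each member as log2(FPKM + 1), with 1 thin line per gene and cultivar from water to salinity, and the median over members in black. SS-up genes are in the left panel, with median means of 7.26 and 18.9 FPKM in SS and 27.9 and 8.74 FPKM in ST, and SS-down genes in the right panel.

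For 59 of the 60 SS-up genes the 3 salinity libraries did not overlap the 3 water libraries in either cultivar, in the directions that chose them. Over all features with at least 1 FPKM in at least 3 root libraries the share with this pattern was 5.9%. Since the rule used these libraries nothing is read from the count. The exception was Zm00001d024745, with 0.998, 5.73 and 3.38 FPKM in SS roots under salinity against 0.884, 0.961 and 1.2 FPKM under water. A mean of at least 10 FPKM was reached in 1 or more root groups by 49 of 60. In the low groups of the responses it was reached by fewer, 22 in SS roots under water and 29 in ST roots under salinity. In 5 genes every library of at least 1 root group held under 20 reads.

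Among the 26 SS-down genes, L ran from -3.90 to -0.82 in SS roots (median -1.05) and from 0.80 to 2.81 in ST roots (median 1.02). The smaller response was at least 1 in size for 8 genes, and the response was larger in SS for 14 and in ST for 12. The nearest members inside the threshold had 0.805 and 0.809, and the nearest genes outside had 0.785 and 0.777.

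Zm00001d038226 had the largest smaller response. It had 6.47, 7.58 and 7.23 FPKM in SS roots under water and 2.24, 2.17 and 2.64 FPKM under salinity. In ST roots it had 0.902, 1.02 and 1.28 FPKM under water and 4.64, 5.1 and 6.06 FPKM under salinity. It was 3.02-fold lower under salinity in SS and 4.92-fold higher in ST, with no overlap of libraries.

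Zm00001d019400, a short model of 318 bases, had 5.57, 4.6 and 5.01 FPKM in SS roots under water and 0.989, 0.725 and 2.86 FPKM under salinity. In ST roots it had 4.56, 8.46 and 10.4 FPKM under water and 55.8, 40.5 and 56.4 FPKM under salinity. The ST replicates under water spread more than 2-fold, but all lay below the salinity libraries. Under salinity its ST level was 33.4-fold the SS level, where the SS libraries held 6 to 22 reads (Zm00001d019400).

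Zm00001d029716 had the largest ST response of the SS-down genes, from 15.6, 19.3 and 15.2 FPKM under water to 122, 124 and 122 FPKM under salinity, while SS roots went from 22.4, 23.1 and 22.5 FPKM to 11.3, 9.92 and 11.5 FPKM. The salinity libraries of ST varied by less than 3 FPKM around 123 ± 1.31 FPKM (SD, n = 3).

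The SS-down genes were mostly higher in SS under water. The SS mean was above the ST mean for 22 of 26 genes under water, and the ST mean was above for 17 (65.4%) under salinity. Over the Zm00001d features with at least 1 FPKM in at least 3 root libraries the ST mean was above for 55.6% under water and 57.5% under salinity. These orders too use the root means that the rule used. The order switched in 13 genes, SS stayed above in 9 and ST stayed above in 4. The median group means were 14.7 and 5.69 FPKM in SS roots and 4.34 and 10.8 FPKM in ST roots, under water and salinity. SS roots under water held the highest mean for 16 genes and ST roots under salinity for 10, the only groups the rule allows.

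The SS-down genes rest on less coverage than the SS-up genes. Their models had a median length of 484.5 bases against 1363 bases for the SS-up genes, and 7 of the 26 had under 20 reads in every library of at least 1 root group. Groups did not overlap in either cultivar for 23 of 26. The share over all features with at least 1 FPKM in at least 3 root libraries is 5.9%, and since the rule used these libraries nothing is read from that count. The exceptions were Zm00001d047548, Zm00001d045156 and Zm00001d008450, named here for that reason after their values were seen. Reads of Zm00001d008450 differed widely between replicates, with 0, 0 and 433 in SS roots under water and 0, 0 and 4 under salinity, and with 1, 186 and 2 in ST roots under water and 96, 0 and 215 under salinity. Zm00001d045156 is a model of 72 bases, shorter than 1 read, with at most 13 reads in any root library.

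Both sets depend on the threshold and on single libraries. Leaving out each root library in turn, 44 of the 60 SS-up genes (73.3%) and 13 of the 26 SS-down genes (50%) met the rule every time.

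**Figure D3:**
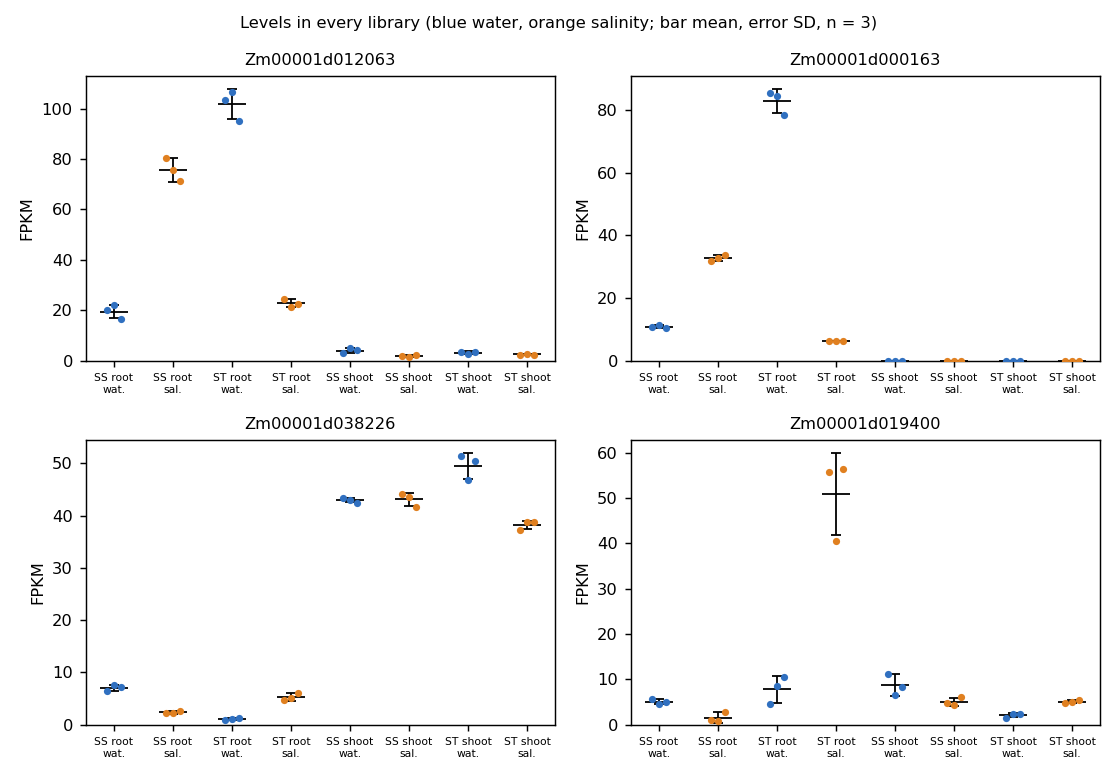
FPKM in each library of the 8 groups for the 2 members of each direction with the largest smaller response, with water in blue, salinity in orange, horizontal bars for means and error bars for SD (n = 3). Zm00001d012063 and Zm00001d000163 are high in ST roots under water and SS roots under salinity, Zm00001d019400 is high in ST roots under salinity, and Zm00001d038226 is higher in all shoot groups than in any root group.

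Most SS-up genes were expressed mainly in roots. Among the SS-up genes, 30 of 60 (50%) had means under 1 FPKM in all 4 shoot groups. The share was 13.8% of all Zm00001d features with at least 1 FPKM in at least 3 root libraries. Of the 60 genes, 12 had no reads in any of the 12 shoot libraries, and the share of such genes over all features was not counted. The root mean was at least 5 times the shoot mean for 47 of them (78.3%, against 18.1% of those features). Among the SS-down genes 6 of 26 (23.1%) met that limit, and 12 (46.2%) had a higher mean in shoots than in roots. The root mean was the higher for 14 of the 26, against 75.2% of those features. Zm00001d000163 had 2 reads in the 12 shoot libraries and Zm00001d041111 had none. Zm00001d038226 was instead a shoot-rich gene, with 42.9 ± 0.411 FPKM in SS shoots and 49.5 ± 2.43 FPKM in ST shoots under water (SD, n = 3). The rule used root levels, so these shares are a description.

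**Figure D4:**
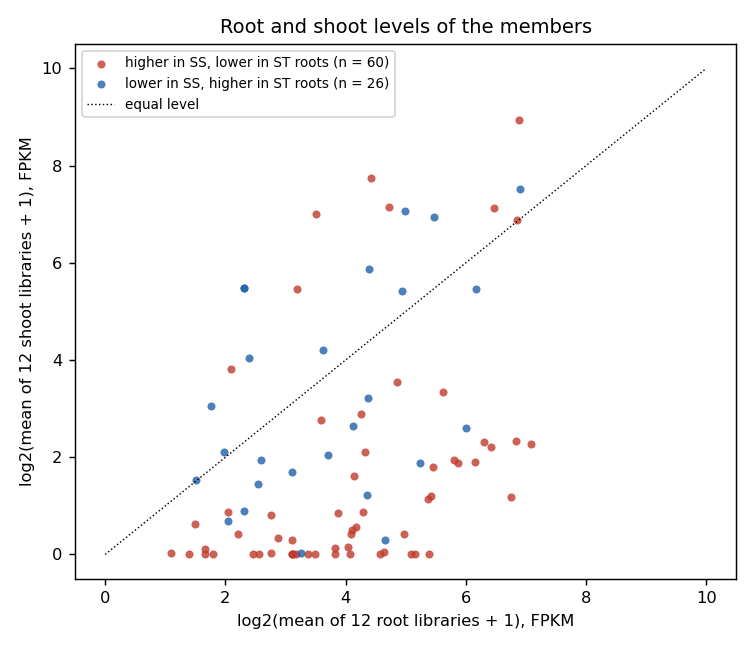
Mean FPKM of each member over the 12 root libraries (horizontal axis) and the 12 shoot libraries (vertical axis), as log2(FPKM + 1), with a dotted line of equal level. Of the SS-up genes (red) 47 of 60 have at least 5 times more in roots, and of the SS-down genes (blue) 12 of 26 lie above the line.

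Shoot libraries took no part in choosing the genes, so the salt responses of shoots were tested with limma on log2(FPKM + 1) over 24810 features with at least 1 FPKM in at least 3 shoot libraries, and p-values were adjusted by Benjamini-Hochberg over all of them. Of the SS-up genes 30 passed this filter and 30 did not, and of the SS-down genes 24 passed and 2 did not. Counts are given over all members. Shares over all features tested leave out features that failed the filter, so they stand beside the tested members only. Some genes passed the filter through a single group where they were high, so calls involving that group are partly set by the filter.

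In SS shoots, salinity raised 6 of the 60 SS-up genes and lowered 16, with 8 tested and not called and 30 not tested (limma adjusted p under 0.05). Over all features tested 33.6% were higher and 23% lower. Of the 6, Zm00001d048061 changed most, from 9.56, 9.53 and 9.16 FPKM to 26.5, 26 and 24.4 FPKM (log2 difference 1.35, SE 0.07, adjusted p = 2.89e-09). It also had the higher level under salinity in SS roots, from 0.595 ± 0.19 to 4.01 ± 0.501 FPKM (SD, n = 3). Zm00001d037849 rose from 4.53 ± 0.726 to 9.83 ± 1.66 FPKM in SS shoots (log2 difference 0.97, SE 0.18, limma adjusted p = 0.000429). Zm00001d002687 and Zm00001d010805 reached 1 FPKM only in SS shoots under water, and Zm00001d012438 only in SS shoots under salinity. Zm00001d017528 would not have passed the filter without its SS water libraries, nor Zm00001d050452 without its SS salinity libraries. These genes entered the test through the SS group with the higher level, and nothing is read from their calls in SS shoots.

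Among the 16 SS-up genes that fell in SS shoots was Zm00001d012063, from 3.99 ± 0.904 to 1.83 ± 0.375 FPKM (log2 difference -0.81, SE 0.14, limma adjusted p = 0.000231), while its root level in SS was 3.89-fold higher under salinity. Zm00001d043019 and Zm00001d043699 fell too, from 7.47 ± 0.573 to 4.86 ± 0.122 FPKM and from 25.1 ± 1.09 to 17.6 ± 0.755 FPKM (SD, n = 3).

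In ST shoots, salinity raised 3 of the 60 SS-up genes and lowered 18, with 9 tested and not called and 30 not tested. The shares over all features tested were 18.9% higher and 22.8% lower. Zm00001d007345 fell from 178, 170 and 174 FPKM to 89.8, 96.2 and 98.9 FPKM (log2 difference -0.87, SE 0.05, limma adjusted p = 1.05e-08), the same direction as in ST roots, where it had 47.6 ± 2.28 FPKM under water and 23.7 ± 1.44 FPKM under salinity. In the opposite direction to ST roots, Zm00001d047736 rose from 10.1 ± 0.153 to 24.8 ± 1.15 FPKM in ST shoots (log2 difference 1.21, SE 0.09, limma adjusted p = 1.6e-07) and Zm00001d035157 rose from 110 ± 1.22 to 211 ± 8.28 FPKM (log2 difference 0.93, SE 0.06, limma adjusted p = 3.09e-08).

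Of the 60 SS-up genes, 30 of which were tested, salinity raised 2 in SS shoots and lowered them in ST shoots, Zm00001d029583 and Zm00001d012438. The share over all features tested was 5.86%, which is near that of the tested members. The count was 1 with median-of-ratios scaling and 1 to 3 when 1 shoot library was left out (1 without SS shoot salinity replicate 1 or 2, ST shoot water replicate 3 or ST shoot salinity replicate 3). Zm00001d029583 went from 99.9, 91.4 and 94.8 FPKM to 123, 130 and 110 FPKM in SS shoots (log2 difference 0.33, SE 0.06, limma adjusted p = 0.000276). In ST shoots it went from 189, 185 and 189 FPKM to 102, 101 and 112 FPKM (log2 difference -0.83, SE 0.06, limma adjusted p = 1.01e-07). Its level in shoots was far above its level in roots, where it had 12.6 ± 2.42 and 23.5 ± 0.676 FPKM in SS and 3.7 ± 0.431 and 1.4 ± 0.628 FPKM in ST (SD, n = 3). Zm00001d012438 reached 1 FPKM only in the 3 SS shoot libraries under salinity. It thus entered the test only through the group called higher, and nothing is read from its rise in SS shoots. Zm00001d012438 had 12 to 117 reads in its shoot libraries. In some of the fits that left out a library it was not tested or its fall in ST was not called.

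In the shoots of both cultivars 11 of the 60 SS-up genes fell, with 30 tested, and over all features tested the share was 8.47%. The count was 6 when a filter of 5 FPKM left fewer genes tested. Of the 11, Zm00001d002687 passed the main filter only through SS shoots under water. Root means were at least 5 times the shoot means for 9 of the 11, for 17 of the 30 tested and for 47 of all 60. Zm00001d027995 had the reverse of its root pattern, with a fall in SS shoots from 6.66 ± 0.28 to 4.53 ± 0.154 FPKM and a rise in ST shoots from 13.7 ± 0.0901 to 17.9 ± 0.786 FPKM (limma adjusted p = 4.16e-06 and 7.26e-05). It was the only SS-up gene called in that way, and the share over all features with a fall in SS and a rise in ST shoots was 4.28%.

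**Figure D5:**
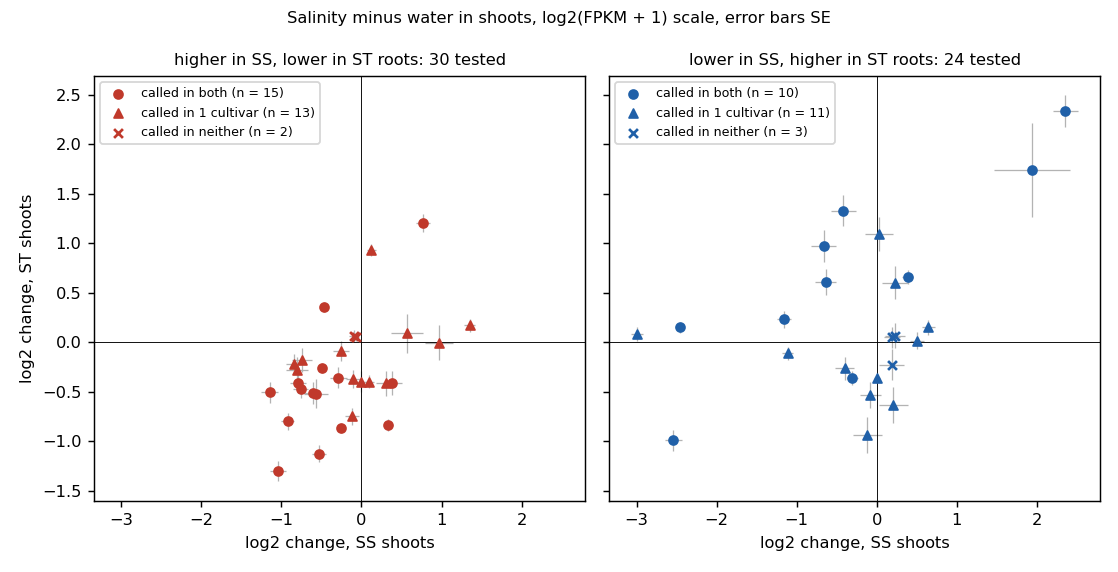
Salt response in SS shoots (horizontal axis) and ST shoots (vertical axis) of the members tested in shoots, as limma log2 differences of FPKM + 1 with SE bars, with SS-up genes on the left and SS-down genes on the right. Circles are called in both cultivars, triangles in 1 and crosses in neither; 11 SS-up genes are called lower in both, and 5 SS-down genes lower in SS and higher in ST.

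In SS shoots, salinity raised 5 of the 26 SS-down genes and lowered 10, with 9 tested and not called, beside 33.6% higher and 23% lower over all features tested. The largest fall was that of Zm00001d022965, from 647, 699 and 588 FPKM to 79, 78.1 and 82.7 FPKM (log2 difference -2.99, SE 0.07, limma adjusted p = 3.21e-12). In SS roots it went from 307 ± 28.3 to 164 ± 10.4 FPKM (SD, n = 3). In ST this gene was nearly absent, with no reads in roots under water, 4 to 31 reads per library in roots under salinity and at most 3 reads in any shoot library. Its place in the set thus rests in ST on 9, 4 and 31 reads (Zm00001d022965).

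Zm00001d017494 fell in SS shoots from 16.3 ± 1.46 to 1.97 ± 0.252 FPKM (log2 difference -2.54, SE 0.11, limma adjusted p = 6.99e-10) and in ST shoots from 1.64 ± 0.411 to 0.32 ± 0.0727 FPKM (log2 difference -0.99, SE 0.11, limma adjusted p = 8.21e-06). In ST roots it was higher under salinity, 84.3 ± 6.44 against 43.9 ± 3.04 FPKM. Zm00001d016076 rose in both shoots, from 85 ± 7.64 to 439 ± 31.2 FPKM in SS (log2 difference 2.36, SE 0.16, limma adjusted p = 4.43e-08) and from 0.178 ± 0.209 to 5.04 ± 1.58 FPKM in ST (log2 difference 2.34, SE 0.16, limma adjusted p = 7.68e-08), with 0 to 3 reads per ST library under water.

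In ST shoots, salinity raised 10 of the 26 SS-down genes and lowered 6, with 8 tested and not called, beside 18.9% higher and 22.8% lower over all features tested, so the share of falls was near that of all features. Zm00001d008961 rose from 2.14, 3.66 and 2.94 FPKM to 6.4, 9.25 and 11 FPKM (log2 difference 1.33, SE 0.16, limma adjusted p = 1.36e-05), and Zm00001d029716 from 49.5 ± 1.6 to 78.9 ± 4.77 FPKM (log2 difference 0.66, SE 0.07, limma adjusted p = 4.25e-06). Zm00001d029716 also rose in SS shoots, from 155 ± 10.7 to 203 ± 19.4 FPKM (log2 difference 0.39, SE 0.07, limma adjusted p = 0.000319), where its root level was lower under salinity. Zm00001d038226 fell in ST shoots from 49.5 ± 2.43 to 38.2 ± 0.814 FPKM (log2 difference -0.36, SE 0.04, limma adjusted p = 1.02e-05), the reverse of ST roots. Zm00001d023384 fell in both shoots, in ST from 12.7 ± 0.773 to 9.73 ± 0.967 FPKM. Zm00001d046675, also among the 6 that fell in ST shoots, would not have passed the filter without its ST water libraries. Zm00001d047548 rose in SS shoots, from 2.36, 8.31 and 2.76 FPKM to 27.3, 22.2 and 9.05 FPKM (log2 difference 1.94, SE 0.47, limma adjusted p = 0.0034).

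The root pattern was present in shoots for 5 of the 26 SS-down genes, which fell in SS and rose in ST shoots, against 4.28% of all features tested. The 5 were Zm00001d008961, Zm00001d019400, Zm00001d037623, Zm00001d038863 and Zm00001d039118. The count was 2 to 4 when 1 shoot library was left out (2 without SS shoot water replicate 1) and 2 with an added 0.1 FPKM in place of 1 or with every feature above 0 tested. Zm00001d019400 and Zm00001d037623 kept both calls in every fit run, and each of the other 3 lost 1 of its 2 calls in some fits.

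Zm00001d019400 had 11.3, 6.64 and 8.33 FPKM in SS shoots under water and 4.8, 4.37 and 6.06 FPKM under salinity (log2 difference -0.66, SE 0.16, limma adjusted p = 0.00319). In ST shoots it had 1.54, 2.31 and 2.44 FPKM under water and 4.74, 4.95 and 5.4 FPKM under salinity (log2 difference 0.97, SE 0.16, limma adjusted p = 0.000261). The cultivars differed under water (limma adjusted p = 4.88e-07), and under salinity SS had 5.08 ± 0.875 and ST 5.03 ± 0.337 FPKM (SD, n = 3). Zm00001d039118 fell in SS shoots from 71.9, 72 and 69.4 FPKM to 11.3, 11.5 and 13.6 FPKM (log2 difference -2.46, SE 0.06, limma adjusted p = 2.6e-12), while in ST it went from 42.7 ± 1.07 to 47.6 ± 0.954 FPKM (log2 difference 0.15, limma adjusted p = 0.0433). Zm00001d037623 had 4 to 45 reads in its shoot libraries, with a fall of 0.64 on the log2 scale in SS and a rise of 0.61 in ST.

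The difference of the salt responses, ST minus SS in shoots, was itself tested. It was higher in 9 and lower in 10 of the 60 SS-up genes, with 11 tested and not called and 30 not tested. Over all features tested 20% were higher and 31.4% lower. The count of 9 fell to 5 without SS shoot water replicate 3, and it also fell with an added 0.1 FPKM in place of 1 and by limma's voom on recovered reads. The added 1 shrinks log2 changes of levels under 1 FPKM. Zm00001d017785, called higher at 0.38, fell from 3.09 to 1.36 FPKM in SS shoots and from 0.555 to 0.168 FPKM in ST shoots. Zm00001d002687, Zm00001d010805 and Zm00001d017528, also called higher, would not have passed the filter without their SS water libraries. Among the SS-down genes the difference was higher in 10 and lower in 5 of 26, with 9 not called. The largest, as log2 differences, were those of Zm00001d022965 (3.08, SE 0.10, limma adjusted p = 1.15e-10) and Zm00001d039118 (2.62, SE 0.08, limma adjusted p = 8.12e-11). With at most 3 reads in any ST shoot library, the value for Zm00001d022965 is in effect the fall in SS alone. Among the SS-up genes the largest were Zm00001d048061 at -1.18 and Zm00001d029583 at -1.17 on the log2 scale.

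The splits over all features in these tests move with the scaling of the libraries. With median-of-ratios scaling the median difference of ST against SS shoots under salinity over all features moved from -0.19 to 0.01 on the log2 scale. The whole-table split, higher against lower, then went from 8327 and 5705 to 6346 and 7052 for SS shoots, from 4958 and 7781 to 6482 and 5853 for the difference of responses, and from 7186 and 12682 to 9798 and 9702 for ST against SS under salinity. It also went from 4697 and 5654 to 5599 and 5215 for ST shoots, and from 8691 and 11174 to 10047 and 9867 for ST against SS under water. The split of the SS-up genes for the difference of responses went from 9 and 10 to 12 and 8.

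The levels of the 2 cultivars were also compared in shoots. Under water 9 of the 60 SS-up genes were higher in ST and 18 lower, with 3 tested and not called and 30 not tested. Over all features tested 35% were higher and 45% lower, shares that stand beside the 30 tested genes and not all 60. Of the 54 SS-up genes with the higher ST level in roots under water, 7 were higher in ST shoots under water and 16 were lower, while 28 were not tested and 3 not called. Under salinity 7 of the 60 were higher in ST shoots and 20 lower, again with 30 not tested, and the shares were 29% and 51.1% of all features tested. Among the SS-down genes 3 of 26 were higher in ST shoots and 16 lower under water, and 6 were higher and 16 lower under salinity.

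Zm00001d017429 was the most abundant SS-up gene in shoots by the ST level, with 756, 770.5 and 771.5 FPKM in ST under water against 205, 188 and 202 FPKM in SS (log2 difference 1.94, SE 0.04, limma adjusted p = 2e-14). Salinity was not called for it in either shoot, whereas in roots it went from 63.1 ± 0.0956 to 126 ± 2.01 FPKM in SS and from 231 ± 9.26 to 49.3 ± 5.93 FPKM in ST (SD, n = 3). Zm00001d047736 was higher in ST shoots under water, with 10.1 ± 0.153 against 0.4 ± 0.196 FPKM (SE of the log2 difference 0.09, limma adjusted p = 1.49e-12), although its roots had 50.5 ± 2.42 FPKM in SS and 35.2 ± 1.69 FPKM in ST. Zm00001d049995 had 232 ± 9.95 FPKM in SS shoots and 53 ± 0.2 FPKM in ST shoots under water (log2 difference -2.11, SE 0.06, limma adjusted p = 1.02e-12), while its water-treated roots had 58.9 ± 2.61 FPKM in SS and 107 ± 7.66 FPKM in ST. The cultivar with the higher level thus differed between the organs in Zm00001d047736 and Zm00001d049995.

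Some members carry identifiers close to each other, which in this annotation number genes along the chromosomes. Of the SS-up genes 11 had another member of the set within 5 identifier numbers, in 4 runs, and of the SS-down genes 4 did, in 2 runs. The longest run was Zm00001d032882, Zm00001d032883, Zm00001d032884 and Zm00001d032885. In SS roots under water and salinity these had 8.43 ± 1.22 and 16.7 ± 0.876, 4.83 ± 0.762 and 10.1 ± 0.868, 3.69 ± 1.1 and 8.07 ± 0.502, and 1.28 ± 0.35 and 3.14 ± 0.422 FPKM (SD, n = 3). In ST roots Zm00001d032883 had 57.3 ± 2.65 and 19.3 ± 1.73 FPKM and the others had means of 3.49 to 21.4 FPKM, each lower under salinity. The run had no reads in shoots except 3 reads of Zm00001d032883 in ST shoots under salinity. Neighbours with similar sequence can share reads, and with no sequence at hand this was not tested.

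Zm00001d019399 and Zm00001d019400 form a run among the SS-down genes. Zm00001d019399 had 16.3, 27.3 and 31.9 FPKM in ST roots under water and 65.8, 52.3 and 62.1 FPKM under salinity, and 18.3, 31.2 and 25.8 against 6.19, 5.3 and 13.2 FPKM in SS roots. In ST roots under water both genes were lowest in replicate 1 and highest in replicate 3, and in SS roots under salinity both were highest in replicate 3. In shoots they differed: Zm00001d019399 was not called for salinity in ST, with 11.7 ± 1.79 and 9.57 ± 1.2 FPKM (limma adjusted p = 0.0847), where Zm00001d019400 rose.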

How the data were processed

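The authors deposited 1 FPKM value per feature and library. TopHat2, Cufflinks, Cuffdiff and the build B73 RefGen_v3 are named, with no roles or versions, per the submitters' processing notes. The Zm00001d identifiers are used as the files give them, and whether they belong to that build was not checked. Each file's 1 row without a name was left out. FPKM values gave whole reads for 99.78% of 40811 features with values (tolerance 0.002 reads). Members and lists were chosen with earlier results of these data known. The 12 shoot libraries, as log2(FPKM + 1), entered a single limma fit (version 3.58.1, under R 4.3.3) with a trended prior and an adjusted p threshold of 0.05. The fit was tested on simulated data. Named genes were, per direction, the 2 with the largest smaller L and, per shoot comparison and sign, the 2 with the largest called difference, non-overlapping groups (not asked of the difference of responses) and a mean of at least 5 FPKM. Gene lists by symbol matched 0 members. Alternatives were another pseudocount, filters, median-of-ratios scaling, a replicate block, left-out libraries and, added after seeing the data, limma's voom on recovered reads. Same-numbered shoot libraries did not deviate together (correlations -0.102 to 0.0656), so the numbers were not treated as pairs. Root libraries were not checked in this way.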

Additional observations from a re-analysis of the deposited data

Results flagged for a closer look

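The salt responses of SS and ST shoots differed for 19 of the 24 named members tested in shoots, by the limma test of the difference itself (ST minus SS, on the log2(FPKM + 1) scale). Since 7 of them were named for the size of this very difference, the count supports nothing, and over all features tested 20% were higher and 31.4% lower. Among the SS-up genes the difference was 0.53 for Zm00001d012063, 0.83 for Zm00001d027995, 0.81 for Zm00001d035157, 0.44 for Zm00001d047736 and 0.23 for Zm00001d043699. It was -0.61 for Zm00001d007345, -0.72 for Zm00001d008449, -1.17 for Zm00001d029583, -0.97 for Zm00001d037849, -0.59 for Zm00001d043019 and -1.18 for Zm00001d048061. Among the SS-down genes it was 1.74 for Zm00001d008961, 1.55 for Zm00001d017494, 1.64 for Zm00001d019400, 3.08 for Zm00001d022965, 0.27 for Zm00001d029716, 1.39 for Zm00001d038863 and 2.62 for Zm00001d039118, and -0.37 for Zm00001d038226. In ST shoots Zm00001d017494 had only 1.24, 1.64 and 2.06 FPKM under water and 0.333, 0.242 and 0.386 FPKM under salinity. The added 1 shrinks a log2 change at such levels, so its 1.55 is not a difference of fold changes in FPKM.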

How the results depend on the processing

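The number of SS-up genes was 164 with an added 0.1 FPKM, 28 with an absolute L of at least 1 and 151 with at least 0.6, and 57 to 66 without each root library; that of SS-down genes was 114, 8, 65 and 22 to 28. Median-of-ratios scaling gave 61 SS-up genes, 60 of them shared, and 22 SS-down genes, all shared. With a filter of at least 5 FPKM, which leaves fewer genes tested, the SS-up counts were 7 lower in SS shoots, 11 lower in ST shoots, 4 with a higher difference of responses, and 9 and 12 lower in ST than SS under water and salinity; the SS-down counts were 3 higher in SS, 3 lower in ST, 1 with a lower difference and 1 higher in ST under water. Testing every feature above 0 gave 5 SS-up genes higher in ST shoots. The SS-up count with a higher difference of responses was 4 with an added 0.1 FPKM and 4 by voom, where the cause was not tested, and 5 to 9 without each shoot library. Of the counts called in both shoots, the 2 SS-up genes with the root pattern became 1 with median-of-ratios scaling and 1 to 3 without each shoot library, the 11 SS-up genes lower in both became 6 with the filter of 5 FPKM, the 5 SS-down genes with the root pattern became 2 with an added 0.1 FPKM or every feature above 0 tested and 2 to 4 without each shoot library, and the 2 SS-down genes lower in both became 4 without ST shoot water replicate 2. The other called counts of single comparisons moved by at most 1.5 times. The replicate block gave 15 SS-up genes lower in SS shoots and 8 with a higher difference, and moved no count of called genes by over 1.5 times. Of 38 comparisons of named genes, none lost its call in 684 refits. They were picked as the largest called differences, so this was close to fixed by the choice. Calls outside these 38 were lost in some fits, as for Zm00001d039118 and Zm00001d038863 in ST shoots and Zm00001d008961 in SS shoots.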

Other observations

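The SS-up gene Zm00001d008449 and the SS-down gene Zm00001d008450 carry consecutive identifiers. Zm00001d008449 had 82, 82 and 86 reads in SS roots under water and 359, 450 and 376 under salinity, and 83, 77 and 73 against 27, 36 and 31 reads in ST roots. Zm00001d008450, whose root reads differed widely between replicates, had at most 1 read in any shoot library. Zm00001d047548 had 5, 70 and 15 reads in SS roots under water and 8, 58 and 6 in ST roots under water, so its highest library in each was replicate 2.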
